A study of Mus musculus with 8 samples.

Results

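CD8αα intraepithelial lymphocytes (IEL) were set against CD8αβ IEL after 24 h on plate-bound anti-CD3, an antibody to the signalling chains of the T cell receptor. A gene was included when its deposited detection p was under 0.01 on both arrays of either subset at 24 h. That rule took 7888 of the 8792 genes tested in the series, 6743 of them with a gene name and 1145 as unnamed array IDs, out of 31492 IDs on the array. It found 6868 detected in both subsets, 727 in CD8αα IEL alone and 293 in CD8αβ IEL alone. Members detected in 1 subset alone had to differ, so no count over them is read as a result.

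Total RNA of 4 groups was measured on Illumina bead arrays with 2 arrays a group, namely CD8αα IEL at 24 h, CD8αβ IEL at 24 h, CD8αα IEL at 0 h and CD8αβ IEL at 0 h. All cells were IEL from the gut of C57BL/6 mice that had first spent 48 h on anti-CD3 (1 µg/ml) with interleukins 2, 3, 4 and 15 and then 14 days in interleukin 2 alone, after which the 2 subsets were sorted. Both 24 h groups were then restimulated on anti-CD3 at 1 µg/ml, and neither subset was kept for 24 h without it. The labels give the CD8αβ cells a TCRαβ and name the receptor of the CD8αα cells in 3 ways (TCRcd, TCRαα, TCRγδ), so that subset is called here by its CD8 chain. The cells are long-term cultures rather than freshly isolated IEL, and the labels do not say whether replicates 1 and 2 came from separate cultures or animals. What the p-values measure is then the spread between these arrays alone, and it may be technical.

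IEL are T cells that lie between the epithelial cells of the gut. Conventional cytotoxic T cells carry CD8 as an αβ heterodimer, which holds the kinase Lck close to the receptor and helps recognition of class I MHC. Many IEL instead carry the CD8αα homodimer, and a large part of those use a γδ receptor, built from variable segments of the γ and δ loci. Such cells are known for low levels of several molecules that mark conventional T cells, among them CD5, CD2 and CD28.

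Each array detected 7747 to 9119 IDs (24.6 to 29.0%), and r between the arrays of a group was 0.955 to 0.963 across genes. At 24 h, r between same-numbered arrays of the 2 subsets was 0.972 (replicate 1) and 0.967 (replicate 2). Both exceeded r between the replicates of CD8αα IEL (0.955) and of CD8αβ IEL (0.96) at 24 h. Precision is limited by the number of arrays and by the differences between replicate numbers. Chip 1 held 6 arrays and chip 2 only replicate 2 of CD8αα IEL at both times, so chip and replicate number cannot be told apart within CD8αα IEL.

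The receptor IDs were read first, since they check the labels. Both δ chain IDs were above background on both CD8αα arrays and on neither CD8αβ array. TRDV5, a δ variable segment, stood at 9.72 and 9.12 in CD8αα IEL, against 4.82 and 4.68 in CD8αβ IEL (normalized log2 signal, replicates 1 and 2). TCRD-V1, the other δ segment, stood at 6.79 and 7.98 in CD8αα IEL, against 4.77 and 4.63 in CD8αβ IEL. Neither δ segment overlapped between the subsets. TRDV5 was at least 12.8-fold higher in CD8αα IEL (log2 4.67, SE 0.33, limma adjusted p = 0.0120).

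Of 13 γ chain IDs, 6 were above background on both CD8αα arrays and 1, TRGV2, on both CD8αβ arrays. TRGV7 stood at 8.75 and 9.71 in CD8αα IEL, against 4.63 and 5.43 in CD8αβ IEL. Tcrg-V5 stood at 8.65 and 9.36 in CD8αα IEL, against 4.68 and 5.33 in CD8αβ IEL. TCRG-V4 was uneven between the CD8αβ arrays, with 10.32 and 10.79 in CD8αα IEL, against 5.33 and 7.87 in CD8αβ IEL. TRGV2 was bright in both subsets, with 9.85 and 9.94 in CD8αα IEL, against 8.37 and 9.86 in CD8αβ IEL. The 6 γ members differed by 0.78 to 4.20, and TRGV5, Tcrg-V5 and TRGV7 passed with an adjusted p of 0.0254 each. Members read in 1 subset alone had to differ, here as for the α and δ IDs. IDs of 1 γ or α family can share near-identical sequence, so they may read the same transcripts.

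The α chain ran the other way. All 28 α IDs were at background on both CD8αα arrays, while 9 were above it on both CD8αβ arrays. Trav6d-7, an α segment, stood at 4.91 and 4.70 in CD8αα IEL, against 7.95 and 7.45 in CD8αβ IEL. Trav6d-7 fell at least 4.27-fold (log2 -2.90, SE 0.38, adjusted p = 0.0480). The 9 α members differed by -2.90 to -1.61, and 5 of them passed, TRAV7D-3, TRAV7-1, TRAV7D-2 and TRAV6D-3 with Trav6d-7.

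The β chain was read in both subsets. Of 20 β IDs, 10 were above background on both arrays of CD8αα IEL and 14 on both arrays of CD8αβ IEL. None of the 14 β members passed the test, and 13 lay below 0 (differences of -3.76 to 0.27), where 50.6% of all members lay above it. TRBV7, TRBV6, TCRB and TRBV31 were above background on both arrays in CD8αβ IEL alone. Their inclusion favoured a lower value in CD8αα IEL, so the count of 13 is not read as a result. With the replicate number as a block 3 β, 7 α and 5 γ IDs passed. TCRB-V13 stood at 14.62 and 15.03 in CD8αα IEL, against 15.26 and 15.40 in CD8αβ IEL. The source of the β signal in CD8αα IEL was not tested.

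**Figure D1:**
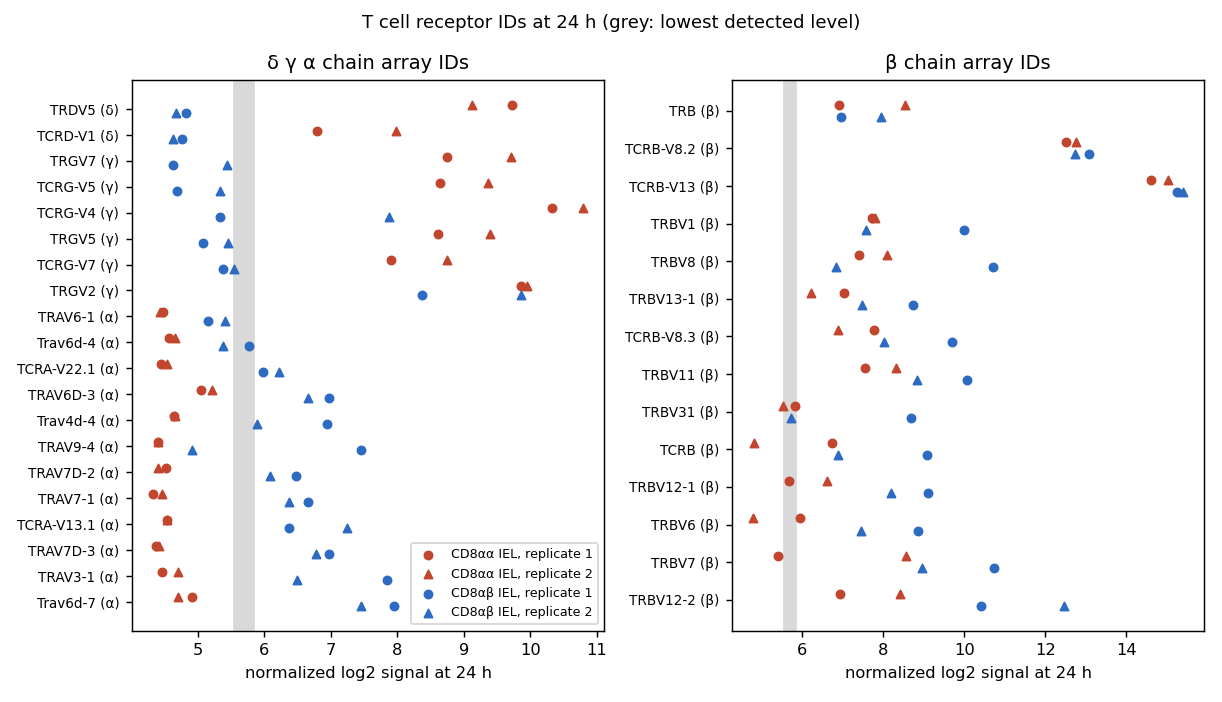
Normalized log2 signal at 24 h (x axis) of the tested receptor IDs (rows), with CD8αα IEL in red above CD8αβ IEL in blue, circles for replicate 1, triangles for replicate 2 and the grey band for the lowest detected level of the 4 arrays. The δ and most γ IDs lie right of the band in CD8αα IEL alone, the 9 α members right of it in CD8αβ IEL alone, and most β IDs right of it in both.

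Cd8b1, the CD8β chain, was lower in CD8αα IEL in both replicates but was not absent. It stood at 8.79 and 9.97 in CD8αα IEL, against 12.87 and 13.23 in CD8αβ IEL. The difference of -3.67 (SE 0.58) had an adjusted p of 0.102 in the limma fit of all 8 arrays, and with the chip as a block it was -4.37 with an adjusted p of 0.0113. Blocking on replicate number gave an adjusted p of 0.00983. Cd8a, the α chain of both dimers, and Cd4 were at background on all 8 arrays, so no level can be given. The CD3 chains, the signalling part of either receptor, differed by -0.27 (Cd247) to 0.22 (Cd3g), and none passed. Cd3g stood at 11.83 and 12.63 in CD8αα IEL, against 11.76 and 12.27 in CD8αβ IEL, so its subsets overlapped.

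Most markers of other cells were at background in both subsets at 24 h. Summed signals of the B cell markers were 1025 to 1030 in CD8αα IEL and 665 to 922 in CD8αβ IEL, with 3 to 4 of 14 above background in each. Cd79a and H2-Aa were at background on all 4 arrays. Cd79b stood at 8.26 and 8.16 in CD8αα IEL, against 6.43 and 5.0 in CD8αβ IEL, and passed in the fit blocked on replicate number (log2 2.49, adjusted p = 0.0423) but not without that block. Igh-6 stood at 7.17 and 7.36 in CD8αα IEL, against 6.71 and 6.18 in CD8αβ IEL, and H2-Ab1 at 8.01 and 6.68 in CD8αα IEL, against 7.5 and 6.15 in CD8αβ IEL. These 3 B cell markers were the ones tested, with differences of 0.52 to 2.49. Igk-C was above background on replicate 2 of CD8αβ IEL alone (8.70), and Cd74 on replicate 2 of both subsets (7.65 in CD8αα IEL and 6.42 in CD8αβ IEL). Of 9 mast cell markers, Kit alone was above background, in CD8αα IEL only, where the sums were 250.4 to 368 against 206 to 207 in CD8αβ IEL. Myeloid sums were 3422 to 4109 in CD8αα IEL and 4124 to 4544 in CD8αβ IEL, nearly all of it Cst3, which lay between 11.60 and 12.03 on the 4 arrays. Epithelial sums were 400 to 453 in CD8αα IEL and 329 to 434 in CD8αβ IEL, and 0 of 4 CD4 T cell markers were above background in either. NK cell and innate lymphoid cell sums were 241 to 391 in CD8αα IEL and 260 to 287 in CD8αβ IEL, with 1 to 2 of 8 above background in each. Of these, Kit was above background on both CD8αα arrays, Eomes on 1 CD8αα and both CD8αβ arrays, and Klrb1c on 1 CD8αβ array. The part of the B cell and mast cell markers in the genes higher in CD8αα IEL was not tested.

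Across all 8792 genes tested, 30 passed at a Benjamini-Hochberg adjusted p of 0.05 (0.341%), 10 of them higher in CD8αα IEL (0.114%) and 20 lower (0.227%). An unadjusted p under 0.05 was reached by 341 (3.88%). With the replicate number as a block 83 passed (0.944%), all 30 among them. Same-numbered arrays deviated together from their group means in all 6 pairs of groups, so the blocked value is given wherever it changes a call. All 30 were members with no overlap between the subsets, and 9 of them were receptor segments. By signal, the lower subset was at background on both arrays for 24 of the 30. It was above background on 1 array for 1 and on both arrays for 5. Members detected in 1 subset alone had to lie higher there, so the split by direction is not read as a result. The differences that passed were 1.53 or more in size on the log2 scale, with adjusted p from 0.0120 to 0.0480. In a simulation of this comparison on 8792 genes, the fit recovered 7.46% of changes of 2-fold, 73.1% at 4-fold and 83.3% at 8-fold. It also called 3 unchanged genes. The simulated arrays varied independently, unlike the same-numbered arrays here. In that setting, differences near 2-fold were mostly not detected with 2 arrays a group.

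Cd5, Cd2, Sh2d1a and Cd28, molecules of T cell adhesion, costimulation and signalling, fell in CD8αα IEL. In bulk samples, fewer cells with a transcript and less of it per cell cannot be told apart. Cd5, a surface receptor that dampens T cell receptor signals, stood at 4.54 and 5.08 in CD8αα IEL, against 9.39 and 9.92 in CD8αβ IEL. Cd5 was at background on both CD8αα arrays, so it fell at least 16.6-fold, with a fitted log2 difference of -4.85 (SE 0.35, adjusted p = 0.0120). Such a bound sets the bright group's mean against the lowest detected level of the dim arrays.

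Cd2, an adhesion molecule that pairs T cells with their targets, stood at 6.22 and 5.87 in CD8αα IEL, against 10.63 and 10.91 in CD8αβ IEL. It fell 26.5-fold (log2 -4.73, SE 0.32, adjusted p = 0.0120) and was above background on all arrays. Sh2d1a, the adaptor that carries signals of SLAM family receptors, stood at 5.95 and 5.14 in CD8αα IEL, against 9.75 and 10.05 in CD8αβ IEL. One CD8αα array detected it, and the fall was at least 17.7-fold (log2 -4.36, SE 0.50, adjusted p = 0.0271). None of the 3 overlapped between the subsets.

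Cd28, the main costimulatory receptor of conventional T cells, stood at 8.68 and 8.49 in CD8αα IEL, against 10.41 and 10.69 in CD8αβ IEL. It fell 3.89-fold (log2 -1.96, SE 0.22, adjusted p = 0.0254) and was well above background in both subsets. Of 22 detected members of the coreceptor and proximal signalling list, 4 passed as lower (Cd5, Cd2, Sh2d1a and Cd28), against 0.227% of all genes tested, and 0 as higher, with a median difference of -0.37, against 0.00 over all members. By the deposited detection p, Cd5 and Sh2d1a were members through CD8αβ IEL alone and so had to lie lower. The list was also chosen with earlier results of these data known, so its count is not read as enrichment. With median scaling in place of quantile normalization, 3 of the 22 passed. The list median relative to that of all genes was -0.38, and -0.39 with median scaling.

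Other members of that list differed by less or less evenly. Cd6, a relative of CD5, stood at 7.47 and 11.28 in CD8αα IEL, against 12.48 and 12.79 in CD8αβ IEL, and did not pass (-3.26, SE 1.10, adjusted p = 0.921). Slamf1, a receptor that signals through the Sh2d1a adaptor, had a difference of -2.25 that did not pass, and Cd96, a receptor for nectin-type ligands, one of 1.5. The kinases Lck (-0.44) and Zap70 (0.09) lay within 0.5 of 0.

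The promoters of Cd5, which was at background in CD8αα IEL, and of Il1a, a cytokine gene that passed as lower at 24 h, are shown to set sequence beside the values of both genes. They run from 250 bases before to 50 after the start in RefSeq's GRCm38.p6 annotation, which held 10 of the 17 named genes that passed. Cd5 lies at chr19:10738925-10739224 and Il1a at chr2:129309923-129310222, both on the minus strand, printed 5′ to 3′ along the gene. Capitals mark matches on either strand to TGANTCA (AP-1), TGTGGT (RUNX) or AGGAAG (ETS).
Cd5: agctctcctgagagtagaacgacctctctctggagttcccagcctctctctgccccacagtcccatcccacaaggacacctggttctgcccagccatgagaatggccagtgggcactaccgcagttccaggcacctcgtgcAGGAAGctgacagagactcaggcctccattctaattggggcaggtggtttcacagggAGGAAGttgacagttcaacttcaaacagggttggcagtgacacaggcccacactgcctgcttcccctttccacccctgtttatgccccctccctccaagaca
Il1a: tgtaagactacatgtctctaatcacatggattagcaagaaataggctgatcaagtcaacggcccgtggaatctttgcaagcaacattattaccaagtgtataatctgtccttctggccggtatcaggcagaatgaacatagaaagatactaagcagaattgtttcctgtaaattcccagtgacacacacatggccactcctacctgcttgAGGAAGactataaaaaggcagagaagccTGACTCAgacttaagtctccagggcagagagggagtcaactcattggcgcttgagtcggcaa
Cd5 held 2 ETS matches, and Il1a held 1 AP-1 and 1 ETS match that do not overlap. Over 32851 promoters of the same length, 7.81% held the AP-1 letters, 16.8% the RUNX letters and 35.4% the ETS letters. A match is a description of the sequence and not a binding site.

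Il1a encodes interleukin 1α, an inflammatory cytokine. It stood at 6.18 and 5.68 in CD8αα IEL, against 9.23 and 8.24 in CD8αβ IEL, and fell 7.0-fold (log2 -2.81, SE 0.34, adjusted p = 0.0350). It was the only 1 of 23 detected cytokines and TNF ligands that passed, against 0.341% of all genes tested. With the replicate number as a block 3 of the 23 passed, Il1a and Inhba among them. The median of those 23 was 0.07, with 12 above 0 and 11 below.

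The other 7 named genes that passed as lower fell in CD8αα IEL. Akr1b8, an aldo-keto reductase, stood at 5.36 and 4.98 in CD8αα IEL, against 8.12 and 8.07 in CD8αβ IEL. It was at background on both CD8αα arrays and fell at least 5.63-fold (log2 -2.93, SE 0.24, adjusted p = 0.0164). Fam169b, with 7.62 and 7.45 in CD8αα IEL against 9.55 and 9.80 in CD8αβ IEL, was detected in both and fell 4.41-fold (log2 -2.14, SE 0.20, adjusted p = 0.0180). The pairs of arrays of each subset lay within 0.4 of each other for both genes.

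Insm1, a zinc finger factor known from neuroendocrine cells, stood at 5.17 and 5.04 in CD8αα IEL, against 7.20 and 7.0 in CD8αβ IEL, a fall of at least 2.83-fold (adjusted p = 0.0164). Rbpms2, an RNA-binding protein, stood at 6.29 and 6.47 in CD8αα IEL, against 8.17 and 8.44 in CD8αβ IEL, a fall of 3.80-fold (adjusted p = 0.0254). Stard13, a GTPase-activating protein, stood at 5.02 and 5.54 in CD8αα IEL, against 7.03 and 7.18 in CD8αβ IEL, a fall of at least 2.83-fold (adjusted p = 0.0310). None of these overlapped between the subsets, and Rbpms2 alone of the 3 was above background on both CD8αα arrays.

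Acsl6, which activates long-chain fatty acids, stood at 4.94 and 4.96 in CD8αα IEL, against 6.78 and 6.36 in CD8αβ IEL, a fall of at least 1.95-fold (adjusted p = 0.0357). Pak6, a serine/threonine kinase, stood at 5.24 and 5.13 in CD8αα IEL, against 6.66 and 6.76 in CD8αβ IEL, a fall of at least 2.15-fold (adjusted p = 0.0271). Both were near background in CD8αβ IEL too, which keeps their bounds low. Among unnamed IDs, LOC386513 fell, with 5.22 and 5.03 in CD8αα IEL against 9.26 and 8.12 in CD8αβ IEL (at least 8.50-fold, adjusted p = 0.0254).

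Besides the receptor segments, 3 named genes rose in CD8αα IEL. Chn2, a chimaerin that turns off the GTPase Rac, stood at 7.94 and 8.03 in CD8αα IEL, against 5.0 and 4.75 in CD8αβ IEL, and rose at least 4.75-fold (log2 3.11, SE 0.28, adjusted p = 0.0164). Grb7, an adaptor of receptor kinases, stood at 7.22 and 7.66 in CD8αα IEL, against 5.25 and 5.0 in CD8αβ IEL, and rose at least 3.26-fold (log2 2.32, SE 0.22, adjusted p = 0.0180). Ckm, the muscle form of creatine kinase, stood at 6.42 and 6.64 in CD8αα IEL, against 4.6 and 4.55 in CD8αβ IEL, and rose at least 1.73-fold (log2 1.95, SE 0.18, adjusted p = 0.0164). All 3 were at background on both CD8αβ arrays. The unnamed ID A630038E17RIK, with 9.55 and 10.05 in CD8αα IEL against 4.58 and 4.92 in CD8αβ IEL, rose at least 16.7-fold (adjusted p = 0.0254).

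**Figure D2:**
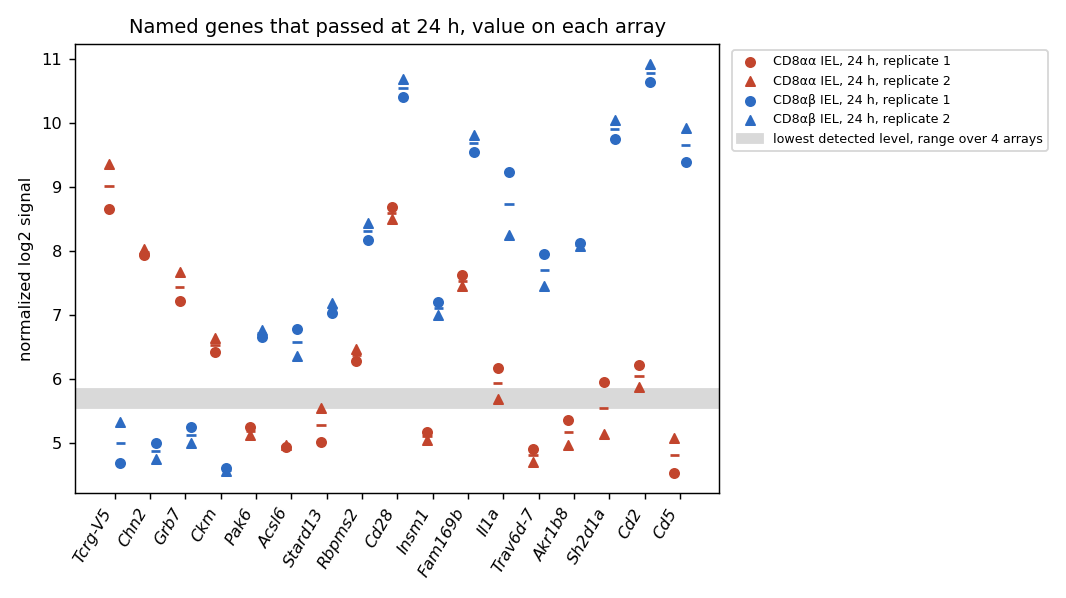
Normalized log2 signal (y axis) of the 17 named genes that passed, ordered by difference, with CD8αα IEL in red left of CD8αβ IEL in blue, circles for replicate 1, triangles for replicate 2, bars for means and the grey band for the lowest detected level of the 4 arrays. The subsets do not overlap for any of the 17, and in most of them the lower subset lies in or under the band.

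The calls rest on few arrays. With the chip as a block 20 genes passed, 16 of them among the 30, among these Cd5, Cd2, Sh2d1a, Akr1b8, Chn2, Grb7 and Ckm, while Cd28 (adjusted p = 0.0682) and Il1a (0.120) did not. Within chip 1, where replicate 1 of CD8αα IEL met both CD8αβ arrays, 0 passed at 2 residual degrees of freedom in limma (smallest adjusted p 0.0735). Leaving out replicate 1 or 2 of CD8αα IEL at 24 h, or replicate 1 of CD8αβ IEL at 24 h, left 0 calls, and leaving out replicate 2 of CD8αβ IEL at 24 h left 4. With median scaling the median difference of all genes tested was 0.24 and the calls split into 12 higher and 14 lower.

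At 0 h, 46 genes passed between the subsets (0.523%, and 190 genes with the replicate number as a block), and 20 were common to both times, 66.7% of the calls at 24 h and 43.5% of those at 0 h. Of the 30 at 24 h, 29 had the same sign at 0 h. Cd5 had a log2 difference of -4.85 at 24 h and -4.09 at 0 h, Cd2 one of -4.73 and -3.41, and Chn2 one of 3.11 and 3.46. For 6 of the 30 (Il1a, Akr1b8, Insm1, Rbpms2, Stard13 and Acsl6) the difference at 0 h was under 0.5 in size (-0.45 to 0.03), and these 6 were at background on every 0 h array. Their change of difference between the times was -2.68 to -1.65.

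That change of the difference was tested as an interaction over all genes, and 0 of 8792 passed in limma (0.00%), with 146 at an unadjusted p under 0.05 (1.66%) and a smallest adjusted p of 0.85. The count was 0 with the replicate number as a block too. A difference between the times was therefore not shown for any gene, those 6 included.

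**Figure D3:**
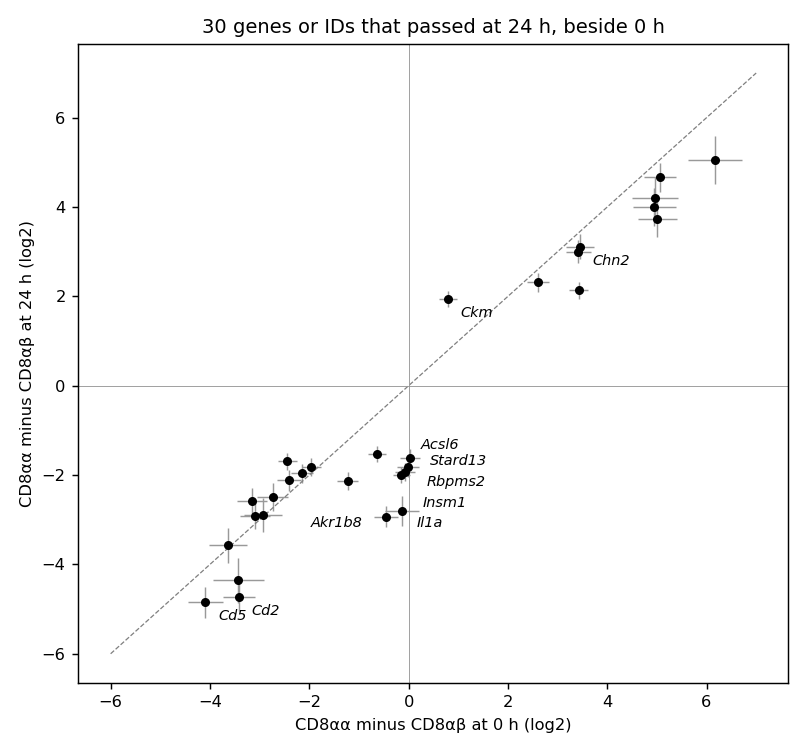
Log2 difference of CD8αα minus CD8αβ IEL at 24 h (y axis) against that at 0 h (x axis) for the 30 genes or IDs that passed at 24 h, with moderated standard errors as bars and the line of equal differences dashed. Most points lie along the line, while 6 lie near 0 at 0 h with differences of -2.93 to -1.62 at 24 h.

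The differences were also taken within each replicate number. In replicate 1, the median over the 7888 members was 0.01 and the median size of the difference 0.20, with 159 above 1 and 184 below -1. In replicate 2, the median was -0.01 and the median size 0.23, with 209 above 1 and 195 below -1. Both replicate numbers were above 1 for 59 members and both below -1 for 83, while 15 exceeded 1 with opposite signs, 186 exceeded it in replicate 1 alone and 247 in replicate 2 alone. The sign was shared by 50.1% of all members, and both arrays of CD8αα IEL lay beyond both of CD8αβ IEL for 22.6%, higher for 11.7% and lower for 10.9%.

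The test favours genes whose arrays differ little within a group, and those that passed had gaps of at most 1.11 between the replicate numbers. Il10, an anti-inflammatory cytokine, had the widest gap among the named genes that differed by over 1 on average. It stood at 10.72 and 4.48 in CD8αα IEL, against 9.34 and 9.84 in CD8αβ IEL, so its difference was 1.39 in replicate 1 and -5.36 in replicate 2. Il24, of the same cytokine family, stood at 14.02 and 6.16 in CD8αα IEL, against 13.69 and 10.20 in CD8αβ IEL, with differences of 0.32 and -4.05. For both, replicate 2 of CD8αα IEL, the array on chip 2, was the low one. Il24 was also lower in replicate 2 of CD8αβ IEL, whose arrays were both on chip 1, while Il10 was not.

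Cd81, a tetraspanin, stood at 7.17 and 9.51 in CD8αα IEL, against 8.16 and 6.31 in CD8αβ IEL, with differences of -0.99 and 3.20. Esm1, a secreted proteoglycan, stood at 7.19 and 6.88 in CD8αα IEL, against 7.63 and 10.94 in CD8αβ IEL, with differences of -0.44 and -4.06. Fcer1g, the signalling chain shared by Fc and NK receptors, stood at 12.04 and 12.44 in CD8αα IEL, against 8.54 and 5.38 in CD8αβ IEL, with differences of 3.51 and 7.05. Fcer1g did not overlap between the subsets, yet its adjusted p was 0.6 (log2 5.28, SE 1.45), and the CD8αβ arrays lay far apart.

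**Figure D4:**
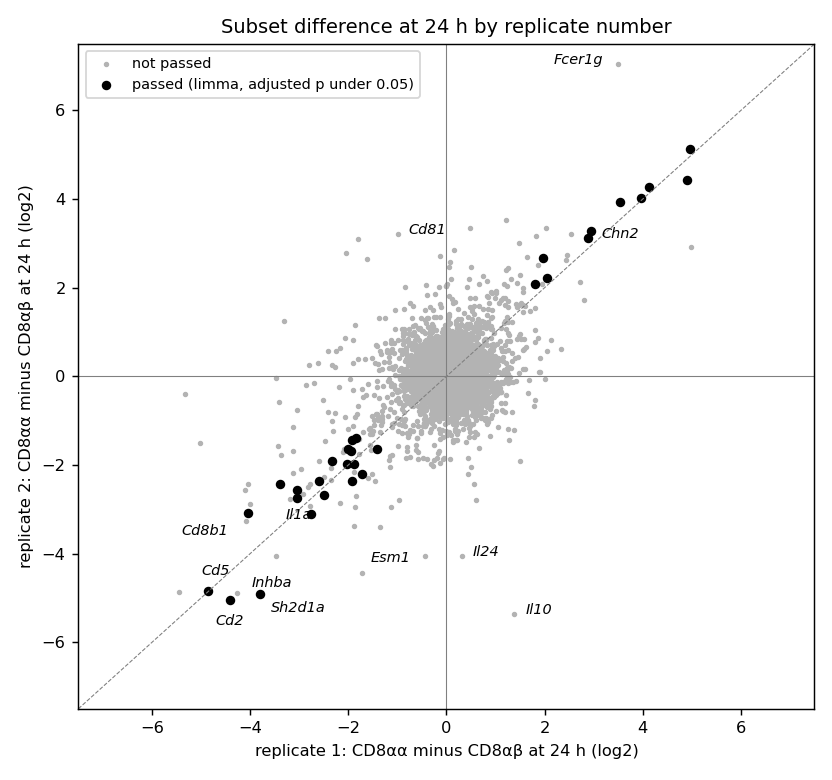
Log2 difference of CD8αα minus CD8αβ IEL in replicate 1 (x axis) and replicate 2 (y axis) for the 7888 members, with genes that passed in black and the line of equal differences dashed. The 30 black points lie near the line, while Il10, Il24, Cd81, Esm1 and Fcer1g lie far from it.

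Other cytokine and activation genes did not pass without the block. Ifng, the main effector cytokine of cytotoxic T cells, was very bright in all, with 15.21 and 15.08 in CD8αα IEL against 15.53 and 15.53 in CD8αβ IEL (difference -0.39). Tnf stood at 9.09 and 9.70 in CD8αα IEL, against 10.82 and 9.998 in CD8αβ IEL (-1.01, SE 0.36, adjusted p = 0.994). Il3, a growth factor of myeloid cells, stood at 11.26 and 10.27 in CD8αα IEL, against 14.38 and 11.96 in CD8αβ IEL (-2.41, SE 0.82, adjusted p = 0.930). Ifng, Tnf and Il3 lay lower in both CD8αα arrays, without overlap, as 10.9% of members did.

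Il2, the T cell growth factor, changed sign between the replicate numbers, with 6.61 and 9.02 in CD8αα IEL against 8.66 and 6.23 in CD8αβ IEL (-2.05 and 2.79). Csf2 had differences of -0.87 and 1.07, Il2ra of 0.74 and -0.94, and Cd69 of -0.03 and 0.71. Each of these 4 overlapped between the subsets. Gzmb, granzyme B, was at background on all 8 arrays, so, as for Cd8a, no level can be given.

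Without the block the other lists held no gene that passed, apart from Cd28 among the 14 detected inhibitory and costimulatory receptors. In that list Cd200, a ligand that restrains myeloid cells, stood at 5.95 and 5.97 in CD8αα IEL, against 7.52 and 7.16 in CD8αβ IEL (-1.38, adjusted p = 0.0542, and 0.0156 with the replicate number as a block). Ctla4 (-1.45) and Tnfrsf4 (-2.04) also lay lower in both CD8αα arrays without passing. Timd2, of the Tim family, lay higher in both (1.22, adjusted p = 0.310).

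Of 15 genes known from γδ T cells, 4 were detected, namely Fcer1g and the segments TCRG-V4, Tcrg-V7 and TCRD-V1. Each was above background on no more than 1 CD8αβ array and so had to lie higher in CD8αα IEL. With the replicate number as a block TCRG-V4 (adjusted p = 0.0258) and Tcrg-V7 (0.0156) passed, and without it none of the 4 did. Of 12 detected NK-type receptors and adaptors, 8 lay above 0 and 4 below, where 50.6% of all members lay above it. Their median was -0.12 in replicate 1, 0.75 in replicate 2 and -0.25 within chip 1. Cd160, a receptor found on many IEL, stood at 10.90 and 12.34 in CD8αα IEL, against 10.42 and 9.0 in CD8αβ IEL (1.91, adjusted p = 0.881). Among 11 genes of gut homing and residence, Itgae, the αE integrin that binds E-cadherin, had a difference of 1.85 (SE 0.64, adjusted p = 0.963). Gpr55, a lipid receptor, stood at 6.32 and 6.44 in CD8αα IEL, against 4.51 and 4.89 in CD8αβ IEL (1.68, adjusted p = 0.0705, and 0.0134 with the replicate number as a block).

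Among 12 transcription factors, Ikzf2, which encodes Helios, stood at 7.28 and 8.25 in CD8αα IEL, against 4.85 and 5.63 in CD8αβ IEL (2.53, adjusted p = 0.303, and 0.00295 with the replicate number as a block). Eomes had a difference of -1.14 and Gata3 one of 1.14. Among 19 cytotoxic granule genes, Prf1, the pore-forming perforin, differed by -0.64, Gzma by 1.28 and Gzmk by -3.07. Gzmk was uneven in CD8αβ IEL, with 4.93 and 5.86 in CD8αα IEL against 6.65 and 10.29 in CD8αβ IEL.

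Metabolic and cycle lists held small differences, and that of glycolysis changed sign within chip 1. All 7 detected GIMAP genes, GTPases of lymphocyte survival, lay above 0 (median 0.26), and 3 lay higher without overlap, where 11.7% of all members did. Without replicate 1 of CD8αβ IEL at 24 h 5 of the 7 lay above 0, and without its replicate 2, 6 did. Of 15 sterol synthesis genes, 14 lay below 0 (median -0.35) and 8 lay lower without overlap, where 10.9% of all members did. The sterol median was -0.10 in replicate 1 and -0.67 in replicate 2. Relative to the median of all genes, the sterol median was -0.36, against -0.33 with median scaling and -0.22 within chip 1. Of 13 glycolysis genes, 12 lay below 0 (median -0.22), with a median of 0.02 in replicate 1 and -0.45 in replicate 2. Relative to the median of all genes, the glycolysis median was -0.23, against -0.28 with median scaling and 0.10 within chip 1. The 17 mitosis genes had a median of 0.57 in replicate 1 and -0.53 in replicate 2, and the 27 S phase genes one of 0.38 and -0.09. No gene of these 5 lists passed.

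**Figure D5:**
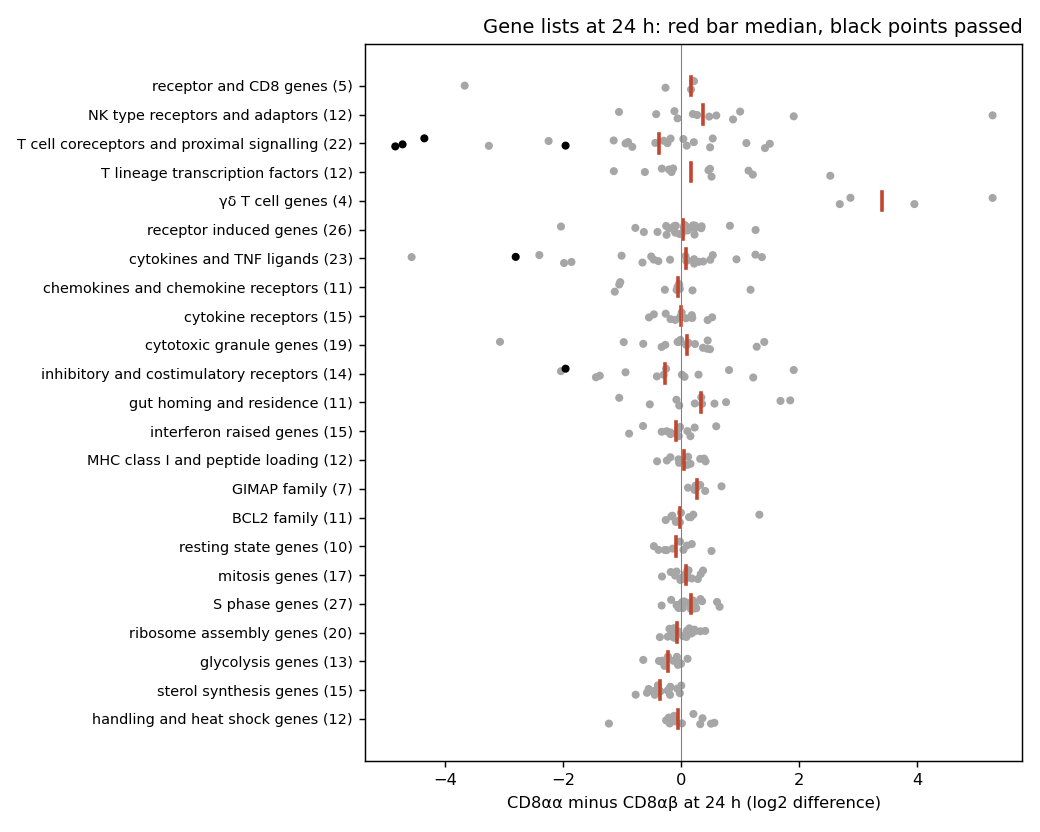
Log2 difference of CD8αα minus CD8αβ IEL at 24 h (x axis) of the detected members of each gene list (rows, number of members in brackets), with list medians as red bars and genes that passed in black. Black points occur in 3 lists, and most other points lie within 1 of 0.

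A set of 20 named genes, chosen after their values were seen, differed by over 2 in both replicate numbers without passing, 6 of them higher in CD8αα IEL and 14 lower. With the replicate number as a block 11 of the 20 passed, against 0.944% of all genes tested. The 20 were chosen by the same differences that the block tests, so that count is not read as a result. Among the 11 were Ly6c1 (adjusted p = 0.00941), Inhba (0.0272), Pdpn (0.0409) and Ahrr (0.00669). The values that follow are without the block. Ly6c1, a surface antigen of memory T cells, stood at 4.99 and 7.08 in CD8αα IEL, against 10.44 and 11.95 in CD8αβ IEL (-5.16, SE 0.98, adjusted p = 0.203). Inhba, a subunit of activin A, stood at 7.69 and 7.02 in CD8αα IEL, against 11.95 and 11.89 in CD8αβ IEL (-4.57, SE 0.64, adjusted p = 0.0568). Pdpn, podoplanin, stood at 5.28 and 5.05 in CD8αα IEL, against 9.38 and 7.62 in CD8αβ IEL (-3.33, adjusted p = 0.0955). Ahrr, the repressor of the aryl hydrocarbon receptor, stood at 8.53 and 9.07 in CD8αα IEL, against 5.81 and 6.94 in CD8αβ IEL (2.42, adjusted p = 0.141). None of these 4 overlapped between the subsets, where 22.6% of all members did not.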

How the data were processed

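The 8 samples gave 1 Illumina bead array each. The authors deposited, per the file headers, the mean bead intensity of every ID without normalization, with deposited bead numbers, bead standard errors of the signal and a detection p-value against negative controls. A second deposited table of log2 values, for which the submitters' processing notes name lumi without a version, served as an alternative. The members and gene lists were chosen with earlier results of these data known.

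Background was fitted by a normal and exponential model through the 22828 single-probe IDs (72.5%), whose detection p-values rank their signal and imply 936 negative controls; an offset of 16, quantile normalization and log2 followed. IDs with a detection p under 0.01 on both arrays of any group entered the fit (8912 of 31492). Detection p-values of IDs that average several probes do not rank their signal, and 1250 such IDs with signal above background on both arrays of a group were left out, so counts of detected genes miss them. Names came from the platform annotation, updated by Entrez ID, accession or LOC number through RefSeq (GRCm38.p6), and the brightest ID stood for a gene. A mean per group was fitted with limma 3.58.1 in R 4.3.3 to all 8 arrays (4 residual degrees of freedom), with moderated variances and Benjamini-Hochberg adjustment over 8792 genes. All adjusted p-values are limma values, and SE is the moderated standard error. Detection for receptor IDs, markers and bounds on folds was read from the signal, as the lowest signal of single-probe IDs with a detection p under 0.01 on that array. Where the dim group was detected on 1 array the fold is also given as a bound. The fit was tested on simulated data. Replicate numbers pair the arrays by the data and not by the labels, since deviations from the group means correlated between same-numbered arrays in all 6 pairs of groups (r of 0.533 to 0.698).

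Genes named are the 10 largest and 10 smallest differences that passed without overlap and have a symbol, up to 3 per list and direction, Cd8a, Cd8b1, the CD3 chains and receptor segments, the 5 widest gaps between replicate numbers among genes with a mean difference over 1, and Ifng, Tnf, Il2, Il3, Csf2, Gzmb, Cd69 and Il2ra. List genes outside these are examples chosen after their values were seen.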

Additional observations from a re-analysis of the deposited data

Results flagged for a closer look

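Some list genes were not tested because their deposited detection p was over 0.01, although their signal was above background. Of 560 list genes on the array, 33 were of this kind with signal above background on all 4 arrays at 24 h. Lat2, an adaptor of receptor signalling, stood at 9.90 and 10.11 in CD8αα IEL, against 9.13 and 8.49 in CD8αβ IEL, a difference of 1.2. Kit, the receptor of stem cell factor, stood at 5.90 and 7.55 in CD8αα IEL, against 4.72 and 4.55 in CD8αβ IEL, where it was at background, a difference of 2.09. Hsp90aa1, a heat shock chaperone, stood at 8.79 and 8.18 in CD8αα IEL, against 7.77 and 7.95 in CD8αβ IEL, a difference of 0.623. These 3 were above background on both CD8αα arrays and higher there than on either CD8αβ array, as 11.7% of members were higher without overlap. Kit, at background in CD8αβ IEL, is not among the 33. Untested genes that lay the other way are not listed here, and none of the differences was tested.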

How the results depend on the processing

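Of the 30 genes that passed, none changed sign under any alternative run, which for left-out arrays follows from the lack of overlap. The number passed, higher in CD8αα IEL and lower was 5 (2 and 3) with only the 4 arrays at 24 h, 1 (0 and 1) with the background from all IDs, 13 (4 and 9) with offset 50, 26 (12 and 14) with median scaling, 6 (0 and 6) with the submitters' log2 values, 17 (6 and 11) with no detection filter, 35 (11 and 24) testing only genes detected at 24 h and also with a random chip block, 20 (12 and 8) with a fixed chip block, 0 (0 and 0) within chip 1 and 32 (10 and 22) with detection read from the signal, an alternative chosen after seeing the data; the causes were not tested. Leaving out 1 array left 0 to 17 (0 to 10 and 0 to 9). With the replicate block 83 passed (30 and 53), and all 30 were among them. The replicate block changed the call of no named gene beyond those given with a blocked p. The interaction count of 0 was 1 with the background from all IDs. The named genes that changed sign had not passed. Il10 stood at 0.212 with the background from all IDs. Within chip 1, Il10 stood at 1.13, Il24 at 2.07, Il2ra at 0.281, Cd3e at -0.195, Cd3d at -0.163, Cd3g at -0.181, Cd69 at -0.504, Il2 at -0.834 and Cd81 at -0.063. A chip block gave Il24 at 0.503, Il2ra at 0.111, Cd3e at -0.0511, Cd3g at -0.0523, Cd69 at -0.539 and Il2 at -0.856, a random one Il2 at -0.0729, and median scaling Cd247 at 0.00497 and Il2ra at 0.165. Leaving out 1 array gave ranges of -5.11 to 1.13 for Il10, -5.79 to 2.07 for Il24, -0.555 to 0.355 for Il2ra, -1.36 to 1.56 for Csf2, -0.197 to 0.53 for Cd3e, -0.163 to 0.561 for Cd3d, -0.181 to 0.615 for Cd3g, -0.504 to 1.18 for Cd69, -0.839 to 1.58 for Il2 and -0.063 to 2.27 for Cd81.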
